A study of Mus musculus with 48 samples.

Results

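The genes described here are those of the proteasome: the protein-coding genes of the deposited table whose symbol begins with Psma, Psmb, Psmc, Psmd, Psme, Psmf or Psmg and a digit. The rule found 49 of the 20007 genes measured by their symbol alone, and was set with earlier results of these data known. They are 14 constitutive subunits of the core particle, 5 genes of the immunoproteasome (Psmb8, Psmb9, Psmb10, Psme1 and Psme2), 6 ATPases and 3 other subunits of the base, 8 subunits of the lid, 3 base and 4 core assembly chaperones, 2 further activators (Psme3, Psme4), the inhibitor Psmf1, the testis-type core subunit Psma8 and Psme2b, a near copy of Psme2. The remaining gene, Psmc3ip, carries a matching symbol because its protein binds Psmc3, but acts in meiotic recombination and is not a subunit.

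The samples were 48 libraries from spleens of 16 mice immunized with SRBC, sheep red blood cells that set off germinal center (GC) reactions. 8 mice carried a transgene for the NF-kB subunit c-Rel (called transgenic here) and 8 did not (controls). All 16 carried 1 further allele, which is not reported here. No source used here gives the mice's age or the promoter that drives the transgene. Each mouse gave 1 library of 1000 sorted cells from each of 3 populations: naive B cells, plasma cells and GC B cells. Naive B cells were sorted as IgD high and IgM low, plasma cells as CD138 positive with low B220, and GC B cells by B220, GL7 and high CD95 with little CD38 and no IgD. Each of the 6 groups held 8 mice.

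The proteasome degrades proteins tagged with ubiquitin. Its core is a barrel of alpha and beta rings, whose catalytic sites lie on the beta subunits Psmb5, Psmb6 and Psmb7, and its regulatory particle has a base, with ATPases that unfold the substrate, and a lid, which removes ubiquitin. In immune cells and after interferon, newly made cores take up Psmb8, Psmb9 and Psmb10 in place of Psmb5, Psmb6 and Psmb7 and can be capped by Psme1 and Psme2; this immunoproteasome is known for making peptides that MHC class I presents. Germinal center B cells divide quickly, and plasma cells make and fold large amounts of antibody.

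The libraries held 97993 to 159857 UMIs (unique molecular identifiers, each 1 counted molecule) in naive B cells, 401207 to 695137 in GC B cells and 481229 to 794273 in plasma cells. Immunoglobulin genes, with Jchain, took 51.8% to 59.5% of the UMIs of plasma cells and at most 5.18% elsewhere. Markers went with the sort labels: the summed level of 6 naive B cell markers was 2746 to 3385 CPM in naive libraries and at most 334 CPM in the others. That of 7 GC markers was 1262 to 1558 CPM in GC B cells and at most 268 CPM in the others. That of 7 plasma cell markers was at least 66932 CPM in plasma cells and at most 4724 CPM in the others. All 7 T cell markers had UMIs in control plasma cells and 6 of 7 in transgenic ones, with Trac at 0. Their sums were 60.2 to 126 and 19.1 to 93.3 CPM, against at most 52.5 CPM in naive and GC libraries, and their part in the results below was not tested. Rel, which encodes c-Rel, had 160 UMIs in transgenic and 61 in control GC B cells, 18 and 1 in plasma cells, and 34 and 35 in naive B cells. No source used here says whether the transgene's transcript ends in the counted 3′ part of Rel, so these counts are a partial check of the labels.

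GC B cells gave the largest share of their molecules to proteasome genes. The 48 subunit and chaperone genes together held 1.30% to 1.46% of all UMIs in control GC libraries (median 1.40%), 0.815% to 0.932% in control naive libraries (median 0.896%) and 0.464% to 0.583% in control plasma cell libraries (median 0.523%), so that these 3 groups did not overlap. The order of the last 2 groups turned round when immunoglobulin UMIs were left out of the total. The share was then 1.07% to 1.28% in control plasma cells and 0.835% to 0.952% in control naive B cells, with control GC B cells still above at 1.32% to 1.48%. In transgenic mice the medians of all UMIs were 0.935% in naive B cells, 1.56% in GC B cells and 0.602% in plasma cells. In bulk samples such as these, a gene used in fewer cells and less of its RNA in each cell cannot be told apart.

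**Figure D1:**
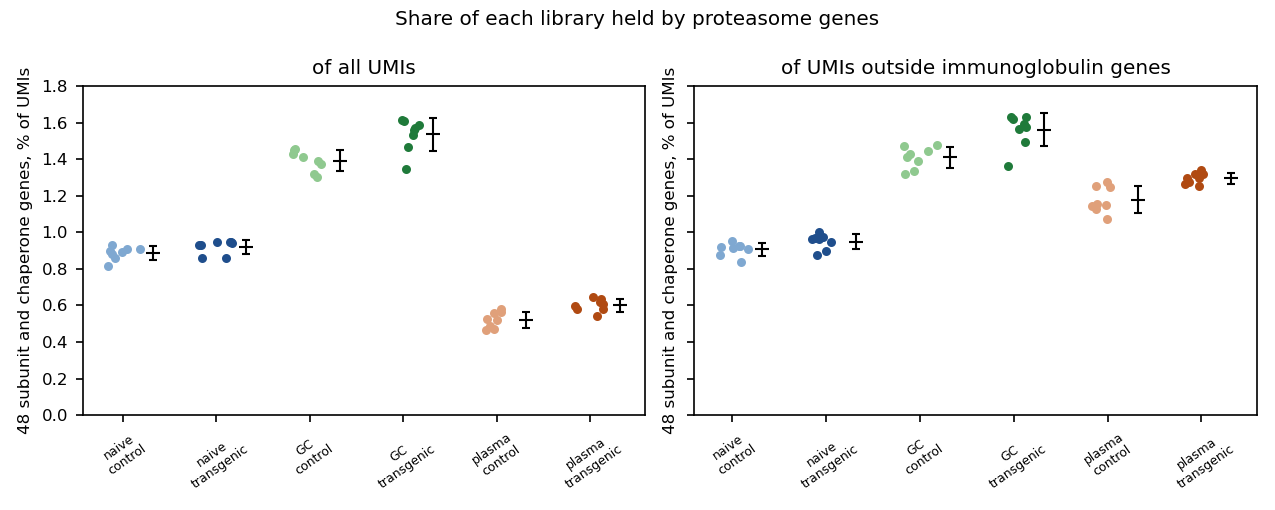
Share of each library's UMIs held by the 48 proteasome subunit and chaperone genes, as a percent of all UMIs (left) and of the UMIs outside immunoglobulin genes (right); each point is 1 library, and the bar gives mean and SD of 8 mice per group. Plasma cells sit lowest on the left, at 0.464% to 0.647%, and between naive and GC B cells in median on the right.

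Because of that load of immunoglobulin, levels are given as CPM, UMIs scaled to the size of the library and corrected by TMM, a scaling that sets the bulk of genes equal between libraries. Fold changes are from edgeR's quasi-likelihood fits with the same scaling, called at a Benjamini-Hochberg adjusted p under 0.05 over all genes tested. A higher or lower level in plasma cells means relative to most other genes of that library. With library totals alone, the median of all genes itself moved in plasma cells, by -1.37 (log2) against naive and -1.54 against GC B cells in control mice and by -1.23 and -1.43 in transgenic mice. The members moved with it. Each tag stands for 1 molecule, so CPM counts molecules and was not divided by gene length.

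The first comparison asked how proteasome genes differ between GC and naive B cells. In control mice, 32 of the 47 members tested were higher in GC B cells and 0 were lower; of all 6503 genes tested, 26.6% were called higher and 24.7% lower. The median of the members was 0.67 (log2), against 0.00 over all genes. In transgenic mice, 34 of 47 were higher and 0 lower (27.5% and 26.5% of all genes), with a median of 0.65. Of the 32 members called in control mice, 31 (96.9%) were also called in transgenic mice, which is 91.2% of the 34 there. For 20 members in control and 22 in transgenic mice, the GC and naive libraries did not overlap, against 21.7% and 23.8% of all genes tested.

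The core particle rose nearly as a whole. All 7 constitutive beta subunits and 6 of the 7 alpha subunits were higher in control GC B cells; Psma5 was the exception, at 0.02 ± 0.20 (SE; edgeR adjusted p = 0.95). Psmb2, a beta subunit without a catalytic site, went from 177 to 267 CPM in control naive libraries (212 ± 30.7, SD, n = 8) to 357 to 464 CPM in GC libraries (402 ± 39.8). The 2 groups did not overlap, and the log2 fold change was 0.91 ± 0.10 (SE; edgeR adjusted p = 1.4e-14). Psma7, a subunit of the alpha ring that gates the barrel, had 143 to 278 CPM (median 218) in naive and 372 to 452 CPM (median 429) in GC libraries, again without overlap, and rose by 0.92 ± 0.10 (SE; edgeR adjusted p = 2.6e-14). Psmb4, also a beta subunit without a catalytic site, rose by 0.67 ± 0.08 (SE; adjusted p = 7.4e-12), from a median of 380.5 to 621 CPM. The same 13 subunits were called in transgenic mice, where Psmb2 rose by 0.92 ± 0.10, Psma7 by 1.05 ± 0.10 and Psmb4 by 0.85 ± 0.08 (SE; n = 8 mice per group).

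The regulatory particle followed, with more exceptions. In control mice 4 of 6 ATPases, 3 of 3 other base subunits and 7 of 8 lid subunits were higher in GC B cells. Psmd14, the lid subunit that cuts ubiquitin chains off the substrate, had 49.3 to 113 CPM (median 77.9) in control naive and 149.6 to 194 CPM (median 184) in control GC libraries. These groups did not overlap, and the gene rose by 1.15 ± 0.15 (SE; edgeR adjusted p = 1.6e-11) in control and by 1.55 ± 0.15 (adjusted p = 5.2e-16) in transgenic mice. Psmd8, another lid subunit, rose by 0.84 ± 0.10 in control and 0.87 ± 0.10 in transgenic mice. Psmd11 was the lid subunit not called, at 0.24 ± 0.13 (edgeR adjusted p = 0.11), and the ATPases not called were Psmc5 (0.52 ± 0.27) and Psmc6 (0.30 ± 0.28), with 37 and 36 UMIs over the 8 control naive libraries.

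Assembly chaperones, activators and the inhibitor moved less evenly. Of the 4 core chaperones, which dock alpha subunits onto one another, Psmg3 rose in control GC B cells (0.996 ± 0.25, SE; edgeR adjusted p = 0.00032), and Psmg1 and Psmg2 were called in transgenic mice instead (1.13 ± 0.27 and 0.56 ± 0.20). Whether these 3 differ between genotypes was tested with the interactions below. Of the base chaperones Psmd9 rose in both genotypes (0.61 ± 0.22 and 0.63 ± 0.23), and without transgenic mouse 5, 6 or 16 its call in transgenic mice was lost, at adjusted p up to 0.0971. Psmf1, known as an inhibitor of the core, was called in transgenic mice (0.60 ± 0.18; adjusted p = 0.0035) and not in controls (0.34 ± 0.20; adjusted p = 0.14). Psmc3ip, the recombination gene, was at 2.62 ± 0.44 in control and 2.43 ± 0.44 in transgenic mice. It had 7 and 10 UMIs over the naive libraries and entered the test through the GC libraries, where it was high, so the size of this difference was favoured by the filter on low counts.

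**Figure D2:**
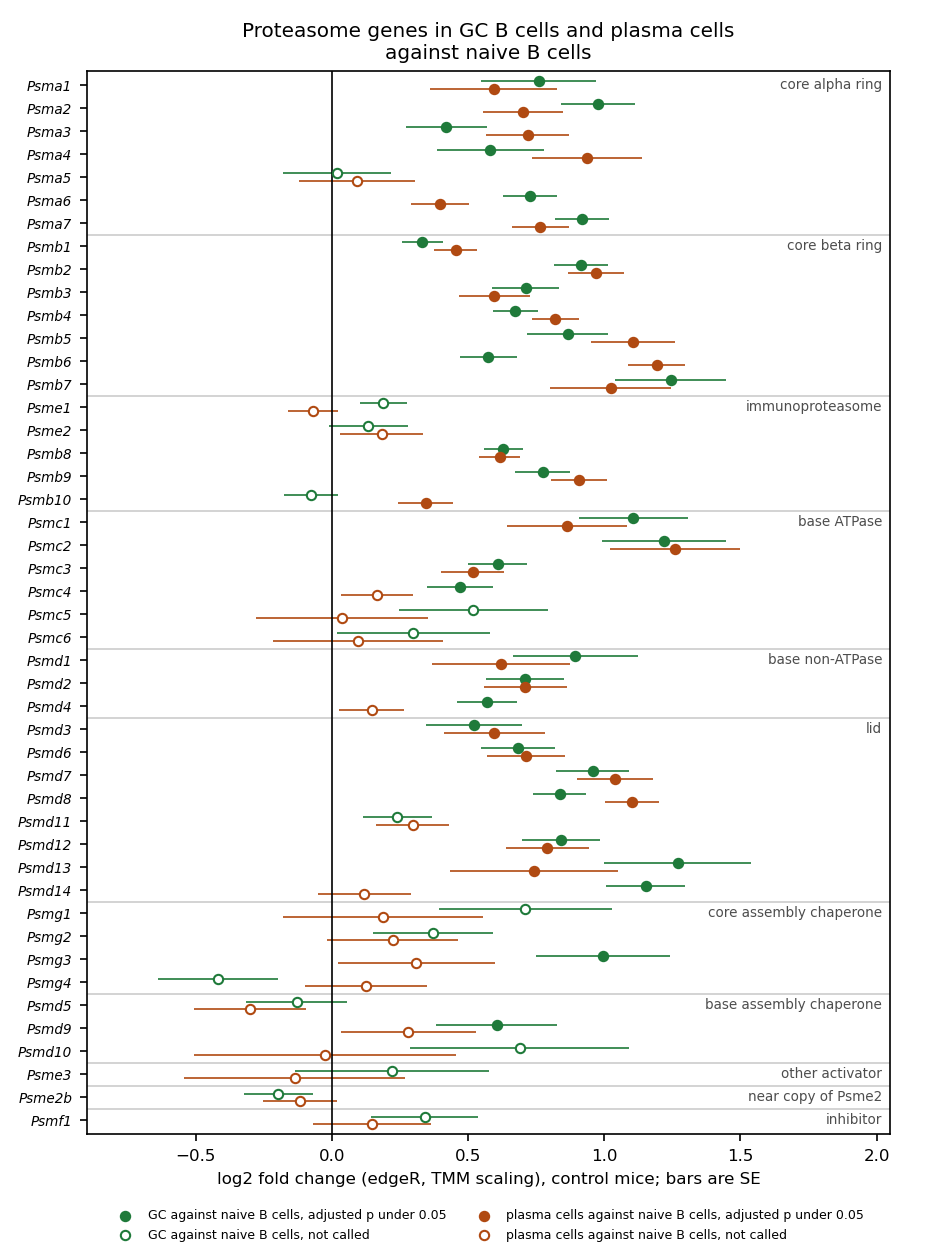
Log2 fold changes (edgeR, TMM scaling; bars are SE) of 46 proteasome genes in control mice, for GC against naive B cells (green) and plasma cells against naive B cells (orange), grouped by role; filled points have an adjusted p under 0.05. Core, base and lid subunits lie mostly to the right of 0, and with library totals alone, where the median of all genes moved by -1.37 in plasma cells, 41 members were called lower there.

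Plasma cells were compared with naive B cells in the same fits. After TMM scaling, 27 of 47 members were higher in control plasma cells and 0 lower, against 27.1% and 25.4% of all genes, and their median was 0.59; with library totals alone 0 were called higher and 41 lower. Relative to the median of all genes, the members' median was 0.58 with TMM scaling and 0.58 with totals alone. A change of scaling moves all genes of a library by a common factor. These values could therefore hardly differ and are no check of the result. In transgenic mice 30 were higher and 2 lower (28% and 26.9% of all genes), with a median of 0.65, and with totals alone 0 were higher and 35 lower. The control and transgenic lists of higher genes shared 26 members, 96.3% and 86.7% of them.

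For 13 members in control and 17 in transgenic mice, plasma cell and naive libraries did not overlap under TMM, against 23.7% and 25.6% of all genes tested.

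By adjusted p, the catalytic core subunit Psmb6 came first. After TMM scaling, Psmb6 had 146 to 308 CPM (median 254) in control naive and 425 to 627 CPM (median 536) in control plasma cell libraries. The groups did not overlap, and the log2 fold change was 1.19 ± 0.10 (SE; edgeR adjusted p = 4.3e-19), or -0.20 with totals alone. Psmd8 rose by 1.10 ± 0.10 (adjusted p = 8.7e-19; -0.29 with totals alone), Psmb4 by 0.82 ± 0.09 (-0.58 with totals alone), Psmb2 by 0.97 ± 0.10 (-0.42 with totals alone) and Psmd7, the lid partner of Psmd14, by 1.04 ± 0.14 (-0.35 with totals alone). By class, 6 of 7 alpha and 7 of 7 beta subunits, 3 of 6 ATPases, 2 of 3 other base subunits and 6 of 8 lid subunits were called higher under TMM. Psmc2, a base ATPase with 38 UMIs over the control naive libraries, was among them at 1.26 ± 0.24. Among the chaperones of both kinds 0 of 7 were called in control mice, where the largest difference from 0 was 0.31 ± 0.29 for Psmg3.

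Set directly against GC B cells, plasma cells did not differ in 1 direction. In control mice 7 of 47 members were higher and 12 lower (30.4% and 35.4% of all genes), and the median of the members, -0.12, was near the -0.09 of all genes. In transgenic mice 8 were higher and 18 lower (31.2% and 37.6% of all genes; medians -0.14 and -0.11). With totals alone 0 members were higher and 47 (control) or 46 (transgenic) lower. The median of all genes was then -1.54 and -1.43, and 22 and 23 of the 47 members lay above it. With TMM but no filter on low counts 4 were higher and 16 lower in control and 5 and 22 in transgenic mice. The lists of higher genes shared 4 members between genotypes (57.1% of the control list, and 4 of the 8 in transgenic mice), and those of lower genes shared 10 (83.3% and 55.6%).

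Single subunits of the same complex went opposite ways. Psmd14 stood out among the lower genes: it had 68.0 to 101 CPM (median 90.7) in control plasma cells, all below the lowest control GC library at 149.6 CPM, and fell by 1.03 ± 0.12 on the log2 scale (SE; edgeR adjusted p = 4.1e-14). In transgenic mice Psmd14 fell by 0.94 ± 0.11. Psmd8, of the same lid, was higher in plasma cells after TMM scaling, by 0.27 ± 0.08 (adjusted p = 0.0013) in control and 0.37 ± 0.08 in transgenic mice, against -1.19 and -0.97 with totals alone. With no filter on low counts the control call of Psmd8 was lost (adjusted p = 0.12), and so were those of Psma3 (0.21) and Psma4 (0.11) of the alpha ring. Psmd4, the ubiquitin receptor of the base, fell by 0.42 ± 0.09 and 0.52 ± 0.08, and Psma6 of the alpha ring by 0.33 ± 0.08 and 0.45 ± 0.08. With all libraries thinned to the smallest, the control values of Psmd4 and Psma6 were -0.19 and -0.19 and not called (adjusted p = 0.365 and 0.298), and Psmd4 was not called in transgenic mice either (-0.31; adjusted p = 0.0755). Psmg3 fell by 0.69 ± 0.18 and 1.10 ± 0.18, while Psmg4, of the same group of chaperones, was higher in control plasma cells under TMM (0.54 ± 0.17; -0.91 with totals alone) and not called in transgenic ones (0.12 ± 0.16).

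Psme4, the nuclear activator PA200, was tested between populations in transgenic mice only, where it passed the filter on low counts through the plasma cell libraries in which it was high; it could not be tested in 3 of the 8 fits without 1 mouse. Its difference is therefore given as a description. It had 7.51 to 18.5 CPM (median 11.1) in transgenic GC libraries and 20.9 to 48.4 CPM (median 35.4) in transgenic plasma cells, without overlap, and differed by 1.51 ± 0.24 (SE) after TMM scaling and by 0.20 with library totals alone. In control mice it had too few UMIs for the test, with medians of 8.94 CPM in GC B cells and 23.2 CPM in plasma cells. Psme3, the other nuclear activator, went the other way in transgenic mice, by -1.14 ± 0.28. There it passed the filter on low counts through the GC libraries, in which it was high, so this difference too is given as a description. In control mice Psme3 was at -0.36 ± 0.28 (edgeR adjusted p = 0.26). Psmc3ip, with 31 UMIs over the control plasma cell libraries and 199 over the GC libraries, fell by 1.59 ± 0.28. It too passed the filter through the GC libraries, in which it was high, so this fall is given as a description.

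The immunoproteasome genes were abundant in all 6 groups. Psmb8, which replaces Psmb5, had more molecules than any other member of the rule in each group, with medians from 823 CPM in control naive B cells to 1590.4 CPM in transgenic plasma cells. It lies on chromosome 17 (GRCm38, 34197721 to 34201454, plus strand), near Psmb9 (34181987 to 34187764, minus strand) and Tap1, a subunit of the transporter that loads peptides. Psmb10 is on chromosome 8 (105935735 to 105938444, minus strand), and Psme1 and Psme2 are neighbours on chromosome 14 (55578123 to 55581529, plus strand, and 55587441 to 55591113, minus strand).

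Psmb8 and Psmb9 were higher in GC B cells and, after TMM scaling, in plasma cells than in naive B cells of both genotypes, and the other 3 were not. Psmb8 had 728 to 929 CPM (median 823) in control naive, 1137 to 1357 CPM (median 1305) in control GC and 1002 to 1585 CPM (median 1202) in control plasma cell libraries. Every GC and every plasma cell library was above every naive one, while GC and plasma cells overlapped. Against naive B cells the log2 fold change was 0.63 ± 0.07 in GC B cells (SE; edgeR adjusted p = 4.2e-13) and 0.62 ± 0.07 in plasma cells under TMM (adjusted p = 1.9e-12; -0.78 with totals alone), and plasma against GC B cells stood at -0.01 ± 0.07 (edgeR adjusted p = 0.86). Psmb9 had 176 to 342 CPM (median 300.4), 374 to 592 CPM (median 484) and 427 to 622 CPM (median 531) in the same order. It rose by 0.77 ± 0.10 (adjusted p = 1.7e-10) and 0.91 ± 0.10 (adjusted p = 9.5e-13; -0.48 with totals alone) over naive B cells, again without overlap, and was at 0.14 ± 0.08 (adjusted p = 0.14) against GC B cells in plasma cells under TMM.

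In transgenic mice the same 2 genes parted between plasma and GC B cells. Psmb8 was higher than in naive B cells by 0.63 ± 0.07 in GC B cells and, under TMM, by 0.86 ± 0.08 in plasma cells (SE; edgeR adjusted p = 2.7e-12 and 1.5e-18; -0.38 in plasma cells with totals alone). Plasma cells were above GC B cells in Psmb8 by 0.23 ± 0.07 under TMM (adjusted p = 0.0021), against -1.10 with totals alone and 0.16 (not called, adjusted p = 0.0736) with no filter on low counts. Psmb9 was higher than in naive B cells by 0.65 ± 0.09 in GC B cells and by 0.43 ± 0.10 in plasma cells under TMM (adjusted p = 2.9e-09 and 8.3e-05; -0.81 in plasma cells with totals alone). It was lower in plasma than in GC B cells, by -0.22 ± 0.08 (adjusted p = 0.013). That last call was lost without transgenic mouse 5 or 16 (adjusted p up to 0.0792), with DESeq2 (0.0613) and after thinning (0.291).

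Psmb10 was not called between naive and GC B cells and was higher, after TMM scaling, in plasma cells of control mice. Its levels were 263 to 391 CPM (median 292) in control naive, 229 to 349 CPM (median 294) in control GC and 327 to 476 CPM (median 395) in control plasma cell libraries, which overlapped. The GC difference from naive was -0.08 ± 0.10 (SE; 95% interval -0.27 to 0.12), and plasma cells were above GC B cells by 0.42 ± 0.08 under TMM (edgeR adjusted p = 5.8e-06; -1.04 with totals alone) and above naive ones by 0.34 ± 0.10 (adjusted p = 0.0025; -1.05 with totals alone). Both calls were lost when all libraries were thinned to the smallest (adjusted p = 0.124 and 0.742). In transgenic mice Psmb10 was not called in any of the 3 contrasts, with values of 0.00 ± 0.09, 0.05 ± 0.10 and 0.05 ± 0.08.

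Psme1, the alpha subunit of the PA28 cap, was lower in plasma cells than in GC B cells in both genotypes. It had 375 to 527 CPM (median 423) in control naive, 446 to 616 CPM (median 487) in control GC and 372 to 503 CPM (median 399) in control plasma cell libraries, with overlap throughout. In transgenic mice these were 480.3 to 629 CPM (median 542), 512 to 699 CPM (median 618) and 348 to 469 CPM (median 419.7), and every plasma cell library was below every naive and GC library. Plasma against GC B cells, Psme1 fell by 0.26 ± 0.08 in control (edgeR adjusted p = 0.0023, and 0.793 with all libraries thinned to the smallest) and by 0.60 ± 0.08 in transgenic mice (adjusted p = 3.1e-11); against naive B cells it was at -0.07 ± 0.09 in control mice and fell by 0.44 ± 0.09 in transgenic mice (adjusted p = 9.9e-06, and 0.0532 after thinning). GC against naive B cells, Psme1 was at 0.19 ± 0.09 in control and 0.17 ± 0.08 in transgenic mice (adjusted p = 0.058 and 0.082), and was called higher in both with no filter on low counts (0.38 and 0.37).

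**Figure D3:**
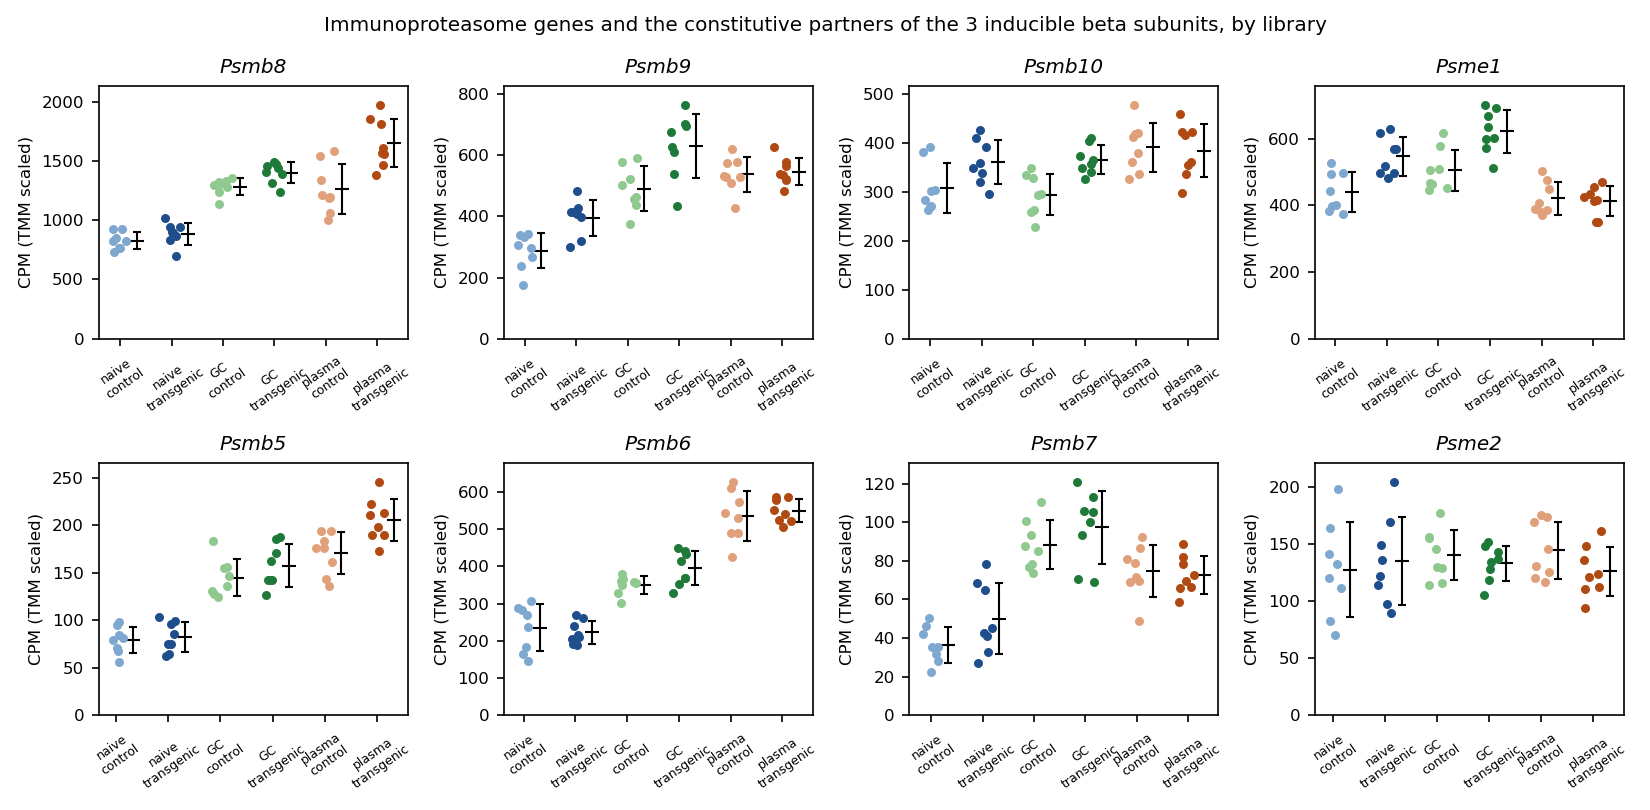
CPM (TMM scaled) of the 5 immunoproteasome genes and of Psmb5, Psmb6 and Psmb7, the constitutive partners of the 3 inducible beta subunits; each point is 1 library, the bar gives mean and SD of 8 mice, and each panel starts at 0. Psmb8 and Psmb9 lie above naive level in GC B cells and plasma cells, the medians of Psme2 lie between 122 and 138 CPM, and under library totals alone plasma cells would lie lower in every panel.

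Psme2, the beta subunit of the PA28 cap, could not be separated with certainty from Psme2b. The transcript of Psme2b (chromosome 11, 48945354 to 48946190, minus strand) aligned to that of Psme2 over 794 bases with 5 mismatches, an identity of 99.37%, so a short 3′ tag can match both. The following 25-base windows from the GENCODE transcripts show 2 of the 5 mismatches in the coding sequence, with the differing base in capitals; positions count from 1 at the first base of the start codon, Psme2 first (A369G and C543T).
Psme2 around 369: tctggtaatcacAtggatccagcac
Psme2b around 369: tctggtaatcacGtggatccagcac
Psme2 around 543: ggcttccaaggaCacccatgtaatg
Psme2b around 543: ggcttccaaggaTacccatgtaatg
The last mismatch lies 221 bases before the end of the Psme2 transcript. The table listed 2593 UMIs for Psme2 and 2796 for Psme2b, and no source used here says how reads matching both were assigned. Their sum was therefore also taken: its mean was 274 to 291 CPM in all 6 groups. Psme2 itself was not called in any of the 6 population contrasts, which ran from -0.14 ± 0.15 to 0.18 ± 0.15 under TMM.

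The share of the inducible form within each catalytic pair described how the 2 forms moved together; these shares carry no test. Psmb8 made up most of the Psmb8 and Psmb5 molecules, with medians of 90.9% in control naive, 90.1% in control GC and 88.5% in control plasma cell libraries, while Psmb5 rose as well (0.87 ± 0.15 in GC and 1.10 ± 0.16 in plasma cells under TMM, against -0.28 with totals alone). Plasma against GC B cells, Psmb5 was at 0.24 ± 0.11 in control mice (SE; edgeR adjusted p = 0.038; -1.22 with totals alone), a call lost in 4 of the 8 fits without 1 mouse (3, 4, 9 or 11; adjusted p up to 0.149), with DESeq2 (0.0726), with no filter (0.374) and after thinning (0.397), and also without immunoglobulin genes. Psmb9 made up 57.3%, 58.8% and 48.9% of Psmb9 and Psmb6 in the same groups, and Psmb6 was 0.57 ± 0.10 above naive level in GC B cells (SE; edgeR adjusted p = 1.4e-06) and 0.62 ± 0.08 above GC level in plasma cells under TMM (SE; edgeR adjusted p = 4.9e-11; -0.84 with totals alone). Psmb10 made up 90.0% of Psmb10 and Psmb7 in control naive libraries, 77.0% in GC B cells and 82.7% in plasma cells. Every control GC library (71.0% to 81.2%) was below every naive one (85.4% to 92.3%). These naive shares rest on few molecules, with 43 Psmb7 UMIs over the 8 control naive libraries. In transgenic mice the shares overlapped, at 74.7% to 85.1% in GC and 81.1% to 92.2% in naive libraries. Psmb7, the constitutive partner, went from 22.5 to 50.3 CPM (median 35.3) in control naive to 73.9 to 111 CPM (median 86.3) in GC libraries and rose by 1.24 ± 0.20 (adjusted p = 9.5e-08). In plasma cells Psmb7 was 1.02 ± 0.22 above naive level under TMM (adjusted p = 4.1e-05; -0.36 with totals alone) and at -0.22 ± 0.14 against GC B cells (adjusted p = 0.15). In transgenic mice Psmb5, Psmb6 and Psmb7 were above naive level by 0.92 ± 0.14, 0.80 ± 0.10 and 0.97 ± 0.19 in GC B cells. In transgenic plasma cells under TMM they were above naive level by 1.29 ± 0.15, 1.27 ± 0.10 and 0.54 ± 0.21, against 0.05, 0.03 and -0.69 with totals alone, and the call of Psmb7 was lost without transgenic mouse 6 or 14 (adjusted p up to 0.0769) and after thinning (0.758). Plasma against GC B cells they were at 0.36 ± 0.10, 0.47 ± 0.08 and -0.43 ± 0.13 there, all called, against -0.97, -0.87 and -1.76 with totals alone, and that of Psmb7 was lost after thinning (adjusted p = 0.109). A share within a library does not depend on the scaling, but these compare 3′ tags of different genes and say nothing of protein.

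**Figure D4:**
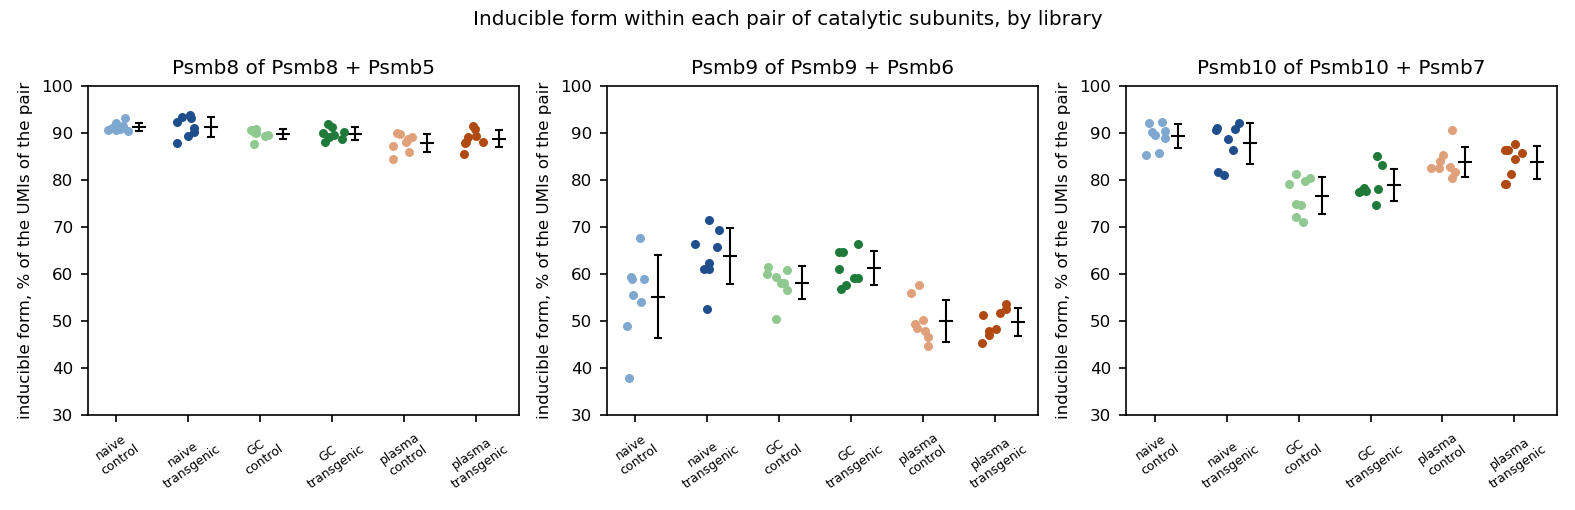
Share of the inducible form in the UMIs of each catalytic pair, in percent (axis from 30 to 100): Psmb8 with Psmb5, Psmb9 with Psmb6, and Psmb10 with Psmb7; each point is 1 library, and the bar gives mean and SD of 8 mice. The share of Psmb10 is lowest in GC B cells and that of Psmb9 in plasma cells, in both genotypes by mean.

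The transgene was compared with control mice within each population, on differences far smaller than those between populations. In naive B cells, 27 members passed the filter on low counts and 1 was called higher, with 0 lower; over all 2131 genes tested 0.61% were called higher and 0.516% lower. In GC B cells 8 of 46 members were called higher and 0 lower, against 3.58% and 4.1% of all 6393 genes. In plasma cells 1 of 43 was called higher and 0 lower, against 2.31% and 4.03% of all 4538 genes. The medians of the members were 0.07, 0.16 and 0.08, with 0.00 for all genes each time, and 2, 22 and 8 members had an unadjusted p under 0.05, where 11.4%, 21.8% and 18.6% of all genes tested did. The 8 of 43 in plasma cells are near that share and the 2 of 27 in naive B cells below it. For none of the 49 members did the 8 transgenic and 8 control libraries of a population separate without overlap, while 0.141%, 0.626% and 0.926% of all genes tested did so.

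Marker levels moved with the genotype as well, and their part in these values was not tested. The summed plasma cell markers had a median of 1792 CPM in control and 2484 CPM in transgenic naive libraries, and 122160 and 93769 CPM in plasma cells. Jchain made up most of the sum in plasma cells, with means of 104296 CPM in control and 71165 CPM in transgenic mice. The single markers did not move in 1 direction in plasma cells. By mean, Xbp1, Sdc1 and Prdm1 were also lower in transgenic mice, while Mzb1 (11817 and 13682 CPM), Irf4 and Slamf7 were higher. Mki67, a gene of dividing cells, had a mean of 40.2 ± 8.55 CPM in control and 85.1 ± 39.1 CPM in transgenic plasma cells (SD, n = 8). The summed T cell markers had medians of 78.8 and 33.9 CPM there.

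The 8 called members in GC B cells came from several parts of the complex: the alpha subunits Psma2, Psma4 and Psma7, the beta subunit Psmb4, the base scaffold Psmd1, the lid subunit Psmd11, and Psmb10 and Psme1 of the immunoproteasome. Psma4 had 81.8 to 124 CPM (median 101) in control and 90.1 to 158 CPM (median 136) in transgenic GC libraries. These groups overlapped, and the log2 fold change was 0.41 ± 0.10 (SE; edgeR adjusted p = 0.0057). Psmb4 rose by 0.22 ± 0.06 (adjusted p = 0.010), from a median of 621 to 729 CPM, Psmd11 by 0.25 ± 0.07 (adjusted p = 0.022) and Psma2 by 0.25 ± 0.08 (adjusted p = 0.034). No ATPase was called, and 3 of the 6, Psmc1, Psmc2 and Psmc5, were below 0 (-0.20 ± 0.11, -0.20 ± 0.11 and -0.49 ± 0.20).

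The number of calls in GC B cells depended on single libraries. It was 5 without control mouse 11 or transgenic mouse 16, and 16 without transgenic mouse 8. The calls of Psma4, Psmb4, Psmb10 and Psme1 held whichever of the 16 libraries was left out, with adjusted p of at most 0.0265. Psmd11 lost its call without control mouse 10 or 11 or transgenic mouse 16 (adjusted p up to 0.0552), Psma2 and Psma7 in 8 and Psmd1 in 9 of the 16 fits (adjusted p up to 0.0946, 0.106 and 0.111). Psmd11 and Psma2 were also not called in the fit of all 48 libraries (adjusted p = 0.0539 and 0.0515), and Psma2 not with DESeq2 (0.0706).

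Of the immunoproteasome genes, 1 passed in naive B cells, 2 in GC B cells and 1 in plasma cells; whether the populations differ was tested separately, further on. In naive B cells Psmb9 passed, at 176 to 342 CPM (median 300.4) in control and 299 to 483 CPM (median 411) in transgenic mice, a rise of 0.44 ± 0.11 (SE; edgeR adjusted p = 0.015). That call was lost without control mouse 2 or 10 or transgenic mouse 5 or 6 (adjusted p up to 0.104), and with DESeq2 or a fit of all 48 libraries (adjusted p up to 0.143). In GC B cells Psmb10 rose by 0.30 ± 0.07 (adjusted p = 0.0051; medians 294 and 361 CPM) and Psme1 by 0.29 ± 0.07 (adjusted p = 0.0039; medians 487 and 618 CPM), while Psmb9 was at 0.34 ± 0.11 (adjusted p = 0.071) and was called in 3 of 5 other settings, with adjusted p from 4.2e-05 to 0.080. In plasma cells Psmb8 rose by 0.38 ± 0.08 (adjusted p = 0.0036), from 1002 to 1585 CPM (median 1202) in control to 1381 to 1969 CPM (median 1590.4) in transgenic mice, and kept its call in all 16 fits without 1 library. Psmb8 stood at 0.08 ± 0.08 in naive and 0.11 ± 0.05 in GC B cells. Psmb10 was at 0.20 ± 0.11 and Psme1 at 0.28 ± 0.09 in naive B cells (adjusted p = 0.49 and 0.096), and in plasma cells Psmb9, Psmb10 and Psme1 were at 0.01 ± 0.08, -0.04 ± 0.09 and -0.03 ± 0.08. Psme2 was at 0.07 ± 0.18, -0.09 ± 0.09 and -0.20 ± 0.12 in naive B cells, GC B cells and plasma cells.

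The constitutive partners were not called in any population. Psmb5 was at 0.01 ± 0.21 in naive B cells, 0.10 ± 0.09 in GC B cells and 0.25 ± 0.10 in plasma cells (edgeR adjusted p = 0.99, 0.57 and 0.16). Psmb6 was at -0.10 ± 0.13, 0.16 ± 0.07 and 0.03 ± 0.08. Psmb7 was at 0.14 ± 0.11 in GC B cells and -0.04 ± 0.15 in plasma cells, and too low in naive B cells for the test.

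**Figure D5:**
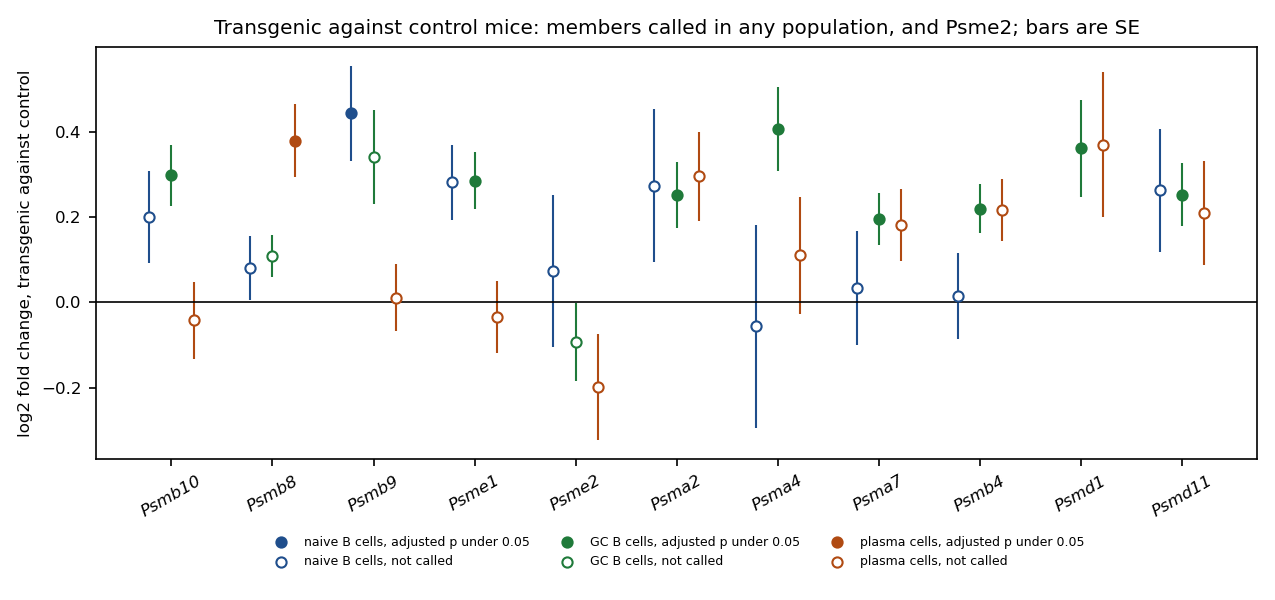
Log2 fold change of transgenic against control mice (edgeR; bars are SE; 8 mice per group) for the 10 members called in any population and Psme2, in naive B cells (blue), GC B cells (green) and plasma cells (orange); filled points have an adjusted p under 0.05. The called values lie between 0.19 and 0.44, and Psmb9, Psmb10 and Psme1 are near 0 in plasma cells.

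Whether these effects differ between populations was tested as the difference of 2 genotype effects in 1 fit of all 48 libraries. Of 48 members tested, 0 passed in any of the 3 contrasts (0.129%, 1.16% and 1.58% of all 7744 genes passed for GC minus naive, plasma minus naive and plasma minus GC), DESeq2 called 0 members in each, and 1, 7 and 6 members had an unadjusted p under 0.05 in edgeR, where 8.37%, 9.67% and 12.4% of all genes did. The effect on Psmb9 was smaller in plasma cells than in naive B cells by -0.44 ± 0.15 (SE; 95% interval -0.74 to -0.14; edgeR adjusted p = 0.18), and that on Psmb8 larger by 0.29 ± 0.11 (0.08 to 0.50; adjusted p = 0.25). Against GC B cells, the effect in plasma cells differed by -0.33 ± 0.11 for Psme1 (adjusted p = 0.11), -0.35 ± 0.12 for Psmb10 (0.12), -0.34 ± 0.12 for Psmb9 (0.16) and 0.26 ± 0.10 for Psmb8 (0.16). With library totals in place of TMM, Psmb8 passed in this last contrast, at 0.37 (adjusted p = 0.025). The chaperones Psmg1, Psmg2 and Psmg3 and the inhibitor Psmf1 did not pass for GC minus naive either (0.44 ± 0.44, 0.21 ± 0.30, -0.56 ± 0.34 and 0.28 ± 0.27). A gene called in 1 population and not in another is therefore not shown to respond differently.

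Genes around the proteasome were taken from 3 lists. Of the 21 partners and regulators in the table, 17 were tested between control populations: 10 were higher and 1 lower in GC than in naive B cells, against 26.6% and 24.7% of all genes, led by Txnl1, a thioredoxin-like protein bound to the regulatory particle (1.13 ± 0.13), and Uchl5, a deubiquitinase of the particle (1.60 ± 0.25). In plasma cells 7 were higher and 0 lower than in naive B cells under TMM, against 27.1% and 25.4% of all genes. Among the 7 were Vcp, the ATPase that pulls ubiquitinated proteins from complexes and the ER membrane, at 2.06 ± 0.11, and Txnl1 at 1.67 ± 0.13. With library totals alone Vcp was still called higher, at 0.66, Txnl1 was at 0.27 and not called, and 1 partner was higher and 11 lower. Uchl5 was lower in plasma than in GC B cells (-1.51 ± 0.19), as was the core maturation factor Pomp (-0.71 ± 0.15), while Nfe2l1, a transcription factor that induces proteasome genes, was higher under TMM (1.39 ± 0.19) and at -0.06 with totals alone.

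The second list mixes genes of peptide loading with inducers of the immunoproteasome. Of its 9 genes, 1 was higher and 5 lower in control GC than in naive B cells, against 26.6% and 24.7% of all genes: Tapbp, which bridges MHC class I and the transporter (-1.43 ± 0.08), fell, as did B2m, the light chain of MHC class I (-1.43 ± 0.11), the interferon factor Irf1 (-1.21 ± 0.22) and Tap1 (-0.37 ± 0.10). Irf8 rose (0.28 ± 0.08). In plasma against GC B cells 6 were higher and 1 lower under TMM, against 30.4% and 35.4% of all genes. B2m was at 3.39 ± 0.12, Tapbp at 2.33 ± 0.07 and Irf8 at -2.94 ± 0.09. With totals alone B2m (1.93) and Tapbp (0.86) stayed higher, and 3 of the 9 were higher and 6 lower. In transgenic against control mice, B2m (0.24 ± 0.05) and Irf1 (0.59 ± 0.13) rose in naive B cells. Irf1 (0.97 ± 0.22) and Tap1 (0.31 ± 0.08) rose in GC B cells. In plasma cells B2m fell by 0.32 ± 0.08, a call that was lost with totals alone (-0.24; adjusted p = 0.078). B2m was the 1 gene of the 3 lists to pass the test of a difference between populations, at -0.58 ± 0.13 for plasma minus naive (edgeR adjusted p = 0.0082) and -0.55 ± 0.13 for plasma minus GC B cells (adjusted p = 0.010).

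Of the partners and ubiquitin genes, 17 and 4 were tested in transgenic against control GC B cells. Of all genes tested there, 3.58% were called higher and 4.1% lower. In GC B cells Vcp (0.25 ± 0.07) and Rps27a (0.22 ± 0.07), a gene for ubiquitin fused to a ribosomal protein, rose, and Sem1, a small lid subunit not covered by the symbol rule (-0.76 ± 0.13), Pomp (-0.48 ± 0.14) and the ubiquitin gene Ubb (-0.63 ± 0.14) fell. Of the 6 ubiquitin genes, 3 of the 4 tested were higher and 1 lower in control plasma cells than in naive B cells under TMM. Of all genes, 27.1% were higher and 25.4% lower. Ubb was higher at 1.03 ± 0.20 and Uba1, the activating enzyme, at 0.31 ± 0.13. Rps27a was lower, at -0.44 ± 0.11. With totals alone all 4 were below 0 (among them Ubb -0.37, Uba1 -1.07, Rps27a -1.84).

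The promoters of the members were searched for letters of 4 motifs, because interferon, NF-kB and Nfe2l1 act on genes of these kinds. RefSeq start sites (GRCm38.p6) were found for 41 members, with 44 windows of 250 bases before the start, and both strands were read. TGACNNNGC, part of the antioxidant-response element that Nfe2l1 binds, was in 5 windows (11.36%), against 10.16% of all 32841 windows. TTCNNNGAA, the gamma-activated type, was in 2 (4.55% against 7.02%), GAAA, any 2 bases and GAAA, the interferon-response type, in 3 (6.82% against 2.98%), and GGGA, any 2 bases and TTCC, a kappaB type, in 1 (2.27% against 1.21%). The stretches below are those of Psmb5 and Psmb6, shown because these are catalytic subunits, with the matched letters in capitals and up to 10 bases on either side, 5′ to 3′ on the strand of the gene.
Psmb5 (chr14:54618024-54618052, minus strand), TGACNNNGC: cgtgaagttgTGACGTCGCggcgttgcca
Psmb6 (chr11:70525338-70525356, plus strand), TGACNNNGC: ctaaagagagTGACGGAGC
The match in Psmb6 ends at the last base before the start. Psmb8 held TTCNNNGAA, but its RefSeq start lies inside the span of the gene given above and all 250 bases of its window are annotated as exon, so that stretch is not shown as promoter. The counts above still include this window. They also include those of Psma4, Psmb9, Psmd13 and Psme2b, which are exon over all 250 bases, and 2 overlapping windows of Psme2. The percentages are therefore not of promoters alone. A match is a string of letters and no measure of binding. By their RefSeq starts, Psmb9 and Tap1 lie 226 bases apart on opposite strands, so that their windows share 225 bases. All 250 bases of both windows are annotated as exon, and the 2 genes overlap by 212 bases, so the shared stretch is not taken as promoter. In GC against naive control B cells Psmb9 and Tap1 did not move together: Psmb9 rose by 0.77 ± 0.10 and Tap1 fell by 0.37 ± 0.10. Of the 49 members, 24 overlap another annotated gene, 19 of them on the opposite strand, among them Psmb8 and Psmb9. Since no source used here says whether counting used the strand, UMIs of such pairs may be mixed. Psma8, with 2 UMIs in all 48 libraries, was the 1 member that entered no fit.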

How the data were processed

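The data were bulk SCRB-seq libraries, which count the 3′ ends of transcripts by UMI. The deposited table holds raw UMI counts per gene and library, which the authors made with STAR on GRCm38.p5, per the submitters' processing notes; no source used here gives the STAR version or the counter. Gene names came from GENCODE M21 (19701 of 20007 IDs named). Replicates were separate mice, 8 per genotype.

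Counts were tested with edgeR 4.0.16 (quasi-likelihood, robust, TMM, filterByExpr by group) in R 4.3.3, with Benjamini-Hochberg adjustment over all genes tested and a threshold of 0.05, after a check on simulated counts. Each genotype comparison used the 16 libraries of 1 population, each population comparison the 24 of 1 genotype, and differences of genotype effects all 48. Levels are CPM with TMM factors over the 48 libraries, and SE is the log2 fold change divided by the square root of the F statistic. DESeq2 1.42.0, no filter, library totals, no immunoglobulin genes, a mouse block, thinning and leaving out single libraries were alternatives.

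The members and the other lists were chosen with earlier results of these data known. Values were given for the 5 immunoproteasome genes and Psmb5, Psmb6 and Psmb7 in each comparison between groups (those of Psme2 between populations as a range), for up to 4 further members per direction and comparison by adjusted p, and for up to 4 called genes of each other list, except some that are not reported here; members named as exceptions in their class, or for a contrast with their class, were chosen after their values were seen. Libraries of the 3 populations came from the same mice, per the labels. Over 3081 genes their deviations from group means correlated at a mean r of 0.054, 0.032 and 0.075 within a mouse and -0.008, -0.004 and -0.011 between mice (naive with GC, naive with plasma, GC with plasma).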

Additional observations from a re-analysis of the deposited data

Results flagged for a closer look

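In control GC B cells, the share of Psmb9 in Psmb9 and Psmb6 was 50.4% in mouse 11, against 56.6% in the nearest of the other 7 mice, a gap of 0.553 of the range of the group (critical value 0.526 for 8 samples). It was 1 of 72 sets of 8 libraries checked in this way, and chance alone picks out about 1 in 20. Leaving this mouse out lowered the number of members called higher in transgenic GC B cells to 5.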

How the results depend on the processing

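The main limit is the scaling of plasma cells. With library totals in place of TMM, 41 and 47 members were called in control plasma cells against naive and GC B cells and 46 in transgenic plasma against GC B cells, all of them lower, and these values turned negative. Control plasma against naive B cells: Psmb8 -0.78, Psmb9 -0.48, Psmb10 -1.05, Psme2 -1.21, Psmb5 -0.28, Psmb6 -0.20, Psmb7 -0.36, Psmd8 -0.29, Psmb4 -0.58, Psmb2 -0.42 and Psmd7 -0.35. Control plasma against GC B cells: Psmb9 -1.32, Psmb10 -1.04, Psme2 -1.41, Psmb5 -1.22, Psmb6 -0.84, Psmd8 -1.19, Psmg4 -0.91, Psma3 -1.16 and Psma4 -1.10. Transgenic plasma against naive B cells: Psmb8 -0.38, Psmb9 -0.81, Psmb10 -1.19, Psmb7 -0.69, Psmd8 -0.0088, Psmb4 -0.27, Psma7 -0.38 and Psmb1 -0.59. Transgenic plasma against GC B cells: Psmb8 -1.10, Psmb10 -1.28, Psmb5 -0.97, Psmb6 -0.87, Psmd8 -0.97, Psmd3 -0.98 and Psma3 -1.06. Under totals the genotype comparison in plasma cells gave 4 members and the difference between plasma and GC B cells 1; without immunoglobulin genes, or with all 48 libraries in 1 fit, the former gave 2 and 2. In naive B cells DESeq2 gave 0 and the fit of 48 libraries 0. Thinned to the smallest library, with fewer UMIs, 6 (control) and 11 (transgenic) members were called between plasma and GC B cells and 19 in transgenic plasma against naive B cells. Of UMIs outside immunoglobulin genes, members held a mean of 1.178% in control and 1.296% in transgenic plasma cells. Without 1 library, members called were 0 to 1 in naive, 5 to 16 in GC and 1 to 2 in plasma cells between genotypes; without 1 mouse, 31 to 34, 24 to 28 and 15 to 18 in control and 32 to 36, 28 to 33 and 22 to 29 in transgenic mice for GC against naive, plasma against naive and plasma against GC B cells. Pairing by mouse, as a replicate block, changed no call of a named gene; it gave 20 members in place of 19 (control) and 27 in place of 26 (transgenic) for plasma against GC B cells. Naive libraries, with the fewest UMIs, left 22 members untested between genotypes.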
